A study of Mus musculus with 2 samples.

Results

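Gene expression of the HIF factors and oxygen sensors was examined in chronic myeloid leukemia (CML) leukemic stem cells (LSCs) of WT and STAP-1 KO mice. The set held 10 genes that were chosen by name, and all 10 were found among the 23284 gene symbols of the 2 libraries. They are the HIF α subunits Hif1a, Epas1 (HIF-2α) and Hif3a, the β subunit Arnt, the prolyl hydroxylases Egln1, Egln2 and Egln3, the ubiquitin ligase subunit Vhl, the asparaginyl hydroxylase Hif1an and the HIF inhibitor Cited2. STAP-1 is an adaptor protein, and the study compared LSCs with and without it. Donor mice were on a C57BL/6J background, carried the Ly5.2 (CD45.2) allele and were 8 to 14 weeks old. They were either wild type or STAP-1 KO, with a targeted disruption of the STAP-1 locus in the germ line. LSK cells (Lin- Sca-1+ c-Kit+) of both genotypes received p210 BCR-ABL from a retrovirus that also encodes GFP, so that both libraries are from BCR-ABL-expressing cells and no library is from untransduced cells. They were transplanted into lethally irradiated C57BL/6SJL (Ly5.1) mice together with C57BL/6SJL bone marrow cells, and GFP+ CD45.2+ LSK cells were sorted on day 11 of the first bone marrow transplantation (BMT). As a model, BCR-ABL is driven by the viral promoter rather than by its own locus, the knockout is present before the cells become leukemic, and the number of mice behind each library is not given in the sources used here. There was 1 library for each genotype, so differences between the genotypes have no replicate check and carry no p-value. Whether further replicate libraries were made, or enter these values, is not given in the sources used here.

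The hypoxia-inducible factors are dimers of an oxygen-regulated α subunit and the constitutive β subunit ARNT. In the presence of oxygen the prolyl hydroxylases PHD1 to PHD3 (encoded by Egln2, Egln1 and Egln3) mark the α subunit for VHL, which directs its degradation, and the asparaginyl hydroxylase FIH (Hif1an) blocks its contact with the coactivators p300 and CBP. Cited2 competes for the same coactivators, and Cited2 and Hif1a are both known for roles in the maintenance of hematopoietic stem cells. Because the α subunits are regulated chiefly at the level of protein stability, the transcript levels given here are not a measure of HIF protein or of HIF activity, which were not measured in these files.

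HIF dimers bind a core of ACGTG or GCGTG, and Egln3, Egln1 and Cited2 are themselves known HIF targets, so the sequences before the start sites of 4 members are shown. They are the most abundant α subunit, the prolyl hydroxylase gene that was lower, the one that was higher, and Cited2. Each sequence is the 250 bases before the RefSeq start site on GRCm38.p6, read 5′ to 3′ on the strand of the gene, with ACGTG or GCGTG on either strand in capitals. The positions are chr12:73907617-73907866 on the plus strand for Hif1a, chr8:124949255-124949504 on the minus strand for Egln1, chr12:54203875-54204124 on the minus strand for Egln3 and chr10:17722978-17723227 on the plus strand for Cited2.
Hif1a: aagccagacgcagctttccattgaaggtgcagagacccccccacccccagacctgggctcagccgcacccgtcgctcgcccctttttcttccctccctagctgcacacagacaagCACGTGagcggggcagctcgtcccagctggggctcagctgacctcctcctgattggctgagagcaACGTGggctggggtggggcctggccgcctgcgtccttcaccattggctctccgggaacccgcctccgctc
Egln1: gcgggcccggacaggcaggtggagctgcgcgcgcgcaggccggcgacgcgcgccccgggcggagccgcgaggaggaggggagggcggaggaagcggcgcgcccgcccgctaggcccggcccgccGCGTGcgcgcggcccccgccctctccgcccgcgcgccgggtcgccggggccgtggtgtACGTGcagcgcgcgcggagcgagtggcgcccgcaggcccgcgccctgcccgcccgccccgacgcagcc
Egln3: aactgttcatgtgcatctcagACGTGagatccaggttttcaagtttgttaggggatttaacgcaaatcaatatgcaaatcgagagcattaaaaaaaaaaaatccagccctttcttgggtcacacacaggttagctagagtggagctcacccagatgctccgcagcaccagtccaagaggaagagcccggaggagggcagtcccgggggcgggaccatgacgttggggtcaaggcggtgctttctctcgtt
Cited2: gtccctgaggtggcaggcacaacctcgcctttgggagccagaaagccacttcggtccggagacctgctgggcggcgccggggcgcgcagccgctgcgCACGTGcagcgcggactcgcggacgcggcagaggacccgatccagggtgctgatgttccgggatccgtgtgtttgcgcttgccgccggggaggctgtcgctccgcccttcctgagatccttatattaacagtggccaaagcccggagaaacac
The palindrome CACGTG, which holds ACGTG on both strands, was present before Hif1a, with its ACGTG at position -134 from the start site (the first base of the motif, with -1 next to the start site), and before Cited2, at -152. Hif1a held a second ACGTG at -70. The Egln1 sequence held GCGTG at -126 and ACGTG at -68, and the Egln3 sequence held a single ACGTG at -229.

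The same search was made in RefSeq windows of 300 bases around the start sites, of which 9 members had at least 1 and Epas1 had none. ACGTG or GCGTG was found in 8 of the 10 windows of these genes, while 43.8% of all 32851 windows hold one of them (ACGTG 19.6%, GCGTG 32.4%). Vhl and Hif1an had no match, Arnt had GCGTG at -29, Hif3a had GCGTG at -186 and on the other strand at -230, and Egln2 had matches in both of its windows. Egln3, which was higher in STAP-1 KO LSCs, and 5 of the 6 members that were at least 2-fold lower there thus held one of these letter strings. TTCNNNGAA, the core of the STAT5 motif, was found in none of the members' windows and in 8.3% of all windows. A match of letters is a description of the sequence and not evidence of binding.

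The targeted gene Stap1 had 62.0 FPKM in WT LSCs and 0.309 FPKM in STAP-1 KO LSCs, a log2 ratio of -7.25. FPKM values are read counts divided by transcript length and library size, and log2 ratios are given as log2 of (STAP-1 KO + 0.1)/(WT + 0.1) unless stated otherwise. Estimated reads come from the steps between low FPKM values, which gave an effective depth of 7500000 reads for WT LSCs and 10460000 for STAP-1 KO LSCs, and the intervals built on them are 95% intervals that cover counting error only. Of the genes for the sorted antigens, Kit (c-Kit) had 468 FPKM in WT LSCs and 30.1 FPKM in STAP-1 KO LSCs, Ly6a (Sca-1) had 285 and 106 FPKM, and Ptprc (CD45) had 107 and 38.2 FPKM. The progenitor marker Cd34, which was not sorted on, had 281 and 194 FPKM. Markers of mast cells and basophils were present in the sorted cells, and 11 of 12 were at least 2-fold lower in STAP-1 KO LSCs (beside 22.9% of all genes), with a sum of 52392 FPKM in WT and 5355 FPKM in STAP-1 KO and none at 0 (Cpa3 had 17984 and 1775 FPKM). The 5 primary granule markers in the files were all at least 2-fold higher (beside 12.3% of all genes) and summed to 564 and 4623 FPKM (Mpo had 248 and 1973 FPKM). The part of these markers in the results below was not tested. In cells sequenced in bulk, fewer cells of a type and less RNA per cell cannot be told apart.

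Most members were lower in STAP-1 KO LSCs, and Egln3 was the exception. With at least 0.1 FPKM in both libraries as a floor, 9 of the 10 members could be compared. Of these, 6 were at least 2-fold lower in STAP-1 KO LSCs (Hif1a, Hif3a, Arnt, Egln1, Hif1an and Cited2), while 22.9% of all 12507 genes above the floor were. Egln3 was at least 2-fold higher, as were 12.3% of all genes. Egln2 and Vhl were within 2-fold, and Epas1 was below the floor in STAP-1 KO LSCs. The median log2 ratio of the 10 members was -1.23, and that of the 12507 genes was -0.05. The background depends on the scaling, since 2860 of all genes were lower and 1538 higher as deposited, whereas 2399 were lower and 2299 higher with the libraries scaled by their medians. That scaling moved the median of all genes to 0.17 and left 5 members lower, without Arnt.

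**Figure D1:**
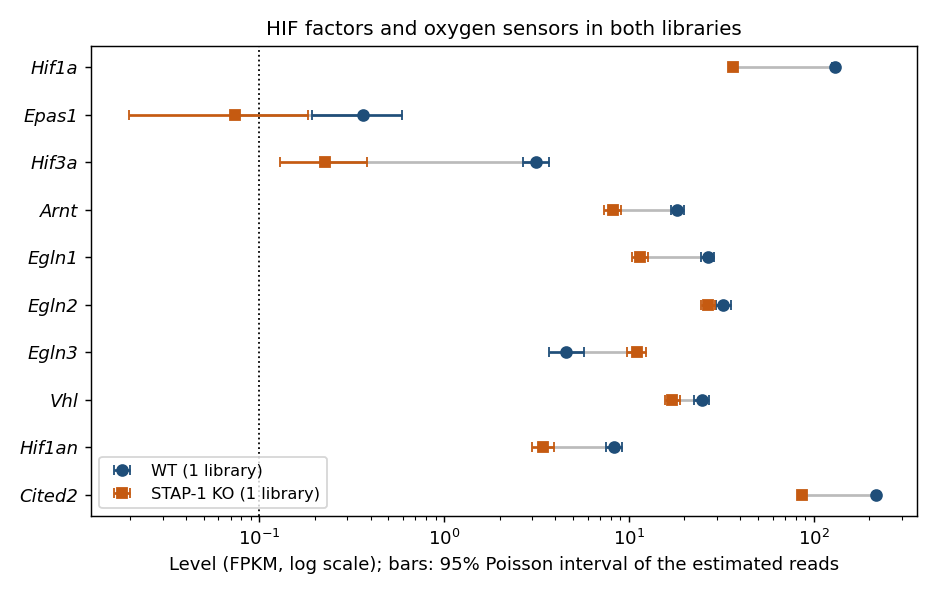
Levels of the 10 genes in FPKM (log scale) in WT LSCs (circles) and STAP-1 KO LSCs (squares), with 95% Poisson intervals of the estimated reads and the floor of 0.1 FPKM as a dotted line. Cited2 and Hif1a have the highest levels in both libraries, Egln3 alone is higher in STAP-1 KO LSCs, and the Epas1 value of that library lies below the floor.

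The ratio of the libraries also varied with transcript length. Over 10865 genes that averaged 1 FPKM or more, the rank correlation between length and log2 ratio was -0.37 across genes, which are not independent replicates. The median log2 ratio was 0.51 in the 1086 genes with the shortest transcripts and -0.98 in as many with the longest. The members are long, with a median length of 3960 bases, so each log2 ratio was also set against genes of like length and GC content by subtracting their median. After this correction, 3 members were at least 2-fold lower (Hif1a, Hif3a and Cited2, beside 17.6% of 12360 genes) and Egln3 was higher (beside 10.7%). Arnt, Egln1 and Hif1an were lower by less than 2-fold after it. The corrected median of all members, Epas1 included, was -0.82. Over the 10865 genes it was 0.00 by construction, since the subtracted medians were taken from these genes.

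**Figure D2:**
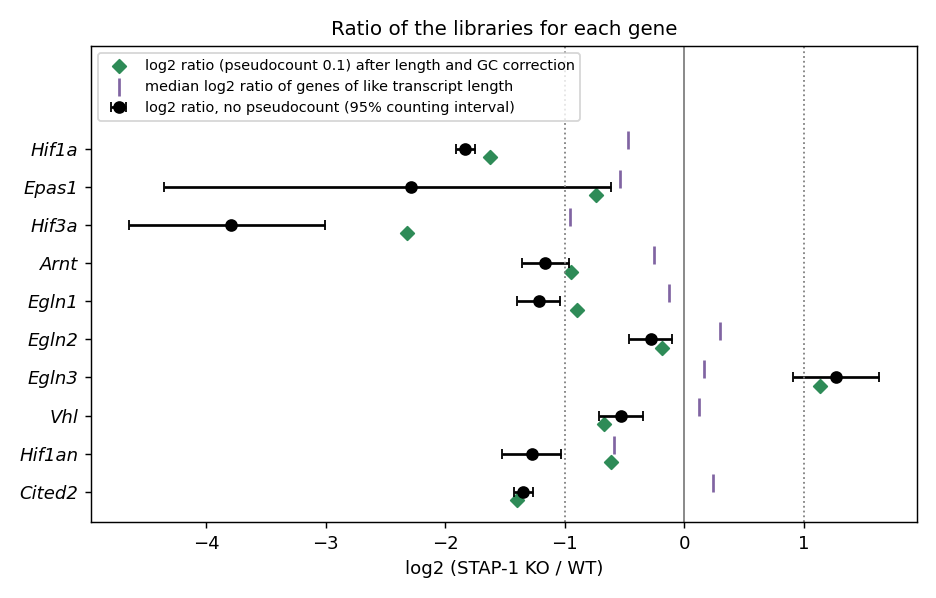
Log2 ratio of STAP-1 KO to WT for each gene without a pseudocount (circles, with 95% counting intervals), after length and GC correction with a pseudocount of 0.1 FPKM (diamonds), and the median log2 ratio of genes of like transcript length (vertical marks), with 2-fold differences as dotted lines. Hif1a, Hif3a and Cited2 lie left of the 2-fold line on both scales and Egln3 lies right of it, while the diamonds of Arnt, Egln1 and Hif1an lie inside the lines.

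Among the α subunits, Hif1a was by far the most abundant and was 3.56-fold lower in STAP-1 KO LSCs. HIF-1α is the subunit best known for driving glycolytic genes. Hif1a (GRCm38 chromosome 12, 73901375 to 73947530, plus strand) had 129.9 FPKM in WT LSCs (interval 126 to 134, about 4400 reads). In STAP-1 KO LSCs it had 36.5 FPKM (34.8 to 38.2, about 1724 reads). The intervals were far apart, and the log2 ratio was -1.83 (counting interval -1.91 to -1.75 without a pseudocount). These reads assume the longest transcript. With the 1759-base transcript instead, they would number about 1513 and 593, and the counting interval would be -1.97 to -1.69. Genes of like transcript length had a median of -0.47, and the corrected log2 ratio of Hif1a was -1.62. Of the 5896 exon bases of Hif1a, 330 are shared with the antisense gene Gm15283 and 148 with Gm49321 on the same strand. Whether reads were counted by strand is not given in the sources used here, so reads in these 330 bases cannot be assigned to one of the genes. In the 148 bases on the same strand, strand could not separate the genes either.

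Hif3a had the largest ratio of the members but a low level. It encodes an α subunit with splice forms that can act against the other α subunits. Hif3a (chromosome 7, 17031507 to 17062427, minus strand) had 3.16 FPKM in WT LSCs (2.67 to 3.72, about 147 reads) and 0.228 FPKM in STAP-1 KO LSCs (0.130 to 0.382, about 14.8 reads). The level was thus 13.9-fold lower, with a log2 ratio of -3.31, and the pseudocount understates this change (without it, -3.79, counting interval -4.65 to -3.004). Hif3a also has long transcripts, and the median log2 ratio of genes of like length was -0.95. After correction for both length and GC content its log2 ratio was -2.31. If its reads came from the 2206-base transcript instead of the longest one, they would number about 47.4 and 4.77, and the counting interval would widen to -5.40 to -2.39.

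Epas1 was at the limit of detection. HIF-2α, its product, is best known from endothelium and from the control of erythropoietin. Epas1 (chromosome 17, 86753700 to 86833410, plus strand) had 0.363 FPKM in WT LSCs (0.192 to 0.590, about 14.5 reads) and 0.0743 FPKM in STAP-1 KO LSCs (0.0196 to 0.184, about 4.13 reads). The counting interval of its log2 ratio without a pseudocount ran from -4.35 to -0.62 around an estimate of -2.29. With the pseudocount, which is larger than the value of STAP-1 KO LSCs, the log2 ratio was -1.41 before and -0.73 after correction, so both values depend on the pseudocount. No count of lower members includes it. The study designed real-time RT-PCR primers for this gene and for Cited2, which are shown because they mark which part of these transcripts was read by another assay. The capitals mark the bases of the Epas1 reverse primer that lie in exon 7, the other bases of that pair being in exon 6.
Epas1 forward: cctgctgtcctgccttatcatc
Epas1 reverse: TCAGTTCCAAGATTctgtcgtcac
Cited2 forward: ttggaccgcatcaaggag
Cited2 reverse: ttaattcacaccgaagaagttg
The Epas1 pair spans an exon junction (chromosome 17, 86809661 to 86818368 on GRCm38) with a product of 143 bases. The Cited2 pair lies in 1 exon (chromosome 10, 17724651 to 17724832) with a product of 182 bases, and its reverse primer is outside the coding sequence. RT-PCR values were not used here.

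Summed over the α subunits, the level was 133 FPKM in WT LSCs and 36.8 FPKM in STAP-1 KO LSCs, 3.63-fold lower. Hif1a made up 97.4% and 99.2% of these sums, Hif3a 2.37% and 0.619%, and Epas1 0.272% and 0.202%. The pool of α subunit transcripts was therefore almost entirely Hif1a in both libraries.

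The β subunit Arnt was lower as well, but by less than Hif1a. ARNT is the shared partner of the α subunits and of the aryl hydrocarbon receptor. Arnt (chromosome 3, 95434388 to 95497240, plus strand) had 18.3 FPKM in WT LSCs (16.8 to 19.9, about 565 reads) and 8.16 FPKM in STAP-1 KO LSCs (7.34 to 9.07, about 352 reads). It was 2.24-fold lower, with a log2 ratio of -1.15 (-1.36 to -0.97 without a pseudocount). This is near the 2-fold line, and the corrected log2 ratio of -0.95 was inside it. With the 2557-base transcript instead of the longest, the Arnt reads would number about 322 and 201, with a counting interval of -1.42 to -0.90. There were 7.11 Hif1a transcripts per Arnt transcript in WT LSCs and 4.47 in STAP-1 KO LSCs by FPKM, a ratio within a library that does not depend on how the libraries were scaled.

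The prolyl hydroxylases differed among themselves. Egln1 was lower, Egln2 was within 2-fold and Egln3 was higher. Egln1, which encodes PHD2, the main oxygen sensor of most cells, is on chromosome 8 from 124908587 to 124949324 on the minus strand. It had 26.7 FPKM in WT LSCs (24.7 to 28.8, about 678 reads) and 11.5 FPKM in STAP-1 KO LSCs (10.4 to 12.6, about 406 reads). The level was 2.33-fold lower, with a log2 ratio of -1.21 (-1.40 to -1.04 without a pseudocount) and of -0.90 after correction, which is inside 2-fold.

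Egln2 encodes PHD1, which is largely nuclear. Egln2 (chromosome 7, 27158658 to 27166802, minus strand) had 32.5 FPKM in WT LSCs (29.7 to 35.6) and 26.8 FPKM in STAP-1 KO LSCs (24.5 to 29.1). The intervals just missed each other, and the log2 ratio was -0.28 (counting interval -0.46 to -0.10 without a pseudocount). With the libraries scaled by their medians it was -0.07, nearer to equal levels than the counting interval.

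Egln3 encodes PHD3, the prolyl hydroxylase known to be most strongly induced by hypoxia and HIF. Egln3 (chromosome 12, 54178981 to 54203860, minus strand) had 4.59 FPKM in WT LSCs (3.69 to 5.71, about 84.6 reads) and 11.1 FPKM in STAP-1 KO LSCs (9.81 to 12.4, about 284 reads). It was 2.41-fold higher, with a log2 ratio of 1.25 (0.91 to 1.63 without a pseudocount), and the lower end of this counting interval lies below 2-fold. Genes of like length had a median of 0.16, and the corrected log2 ratio was 1.13. The ratio of Egln3 was thus opposite in sign to those of Hif1a and Egln1.

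The sum of the prolyl hydroxylase levels was closer between the libraries, with 63.8 FPKM in WT LSCs and 49.3 FPKM in STAP-1 KO LSCs, 1.29-fold lower. Its makeup differed more. Egln1 made up 41.8% and 23.3% of the sum, Egln2 51.0% and 54.3%, and Egln3 7.202% and 22.5%. The ratio of Egln3 to Egln1 within a library was 0.172 in WT LSCs and 0.966 in STAP-1 KO LSCs, a 5.61-fold difference.

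**Figure D3:**
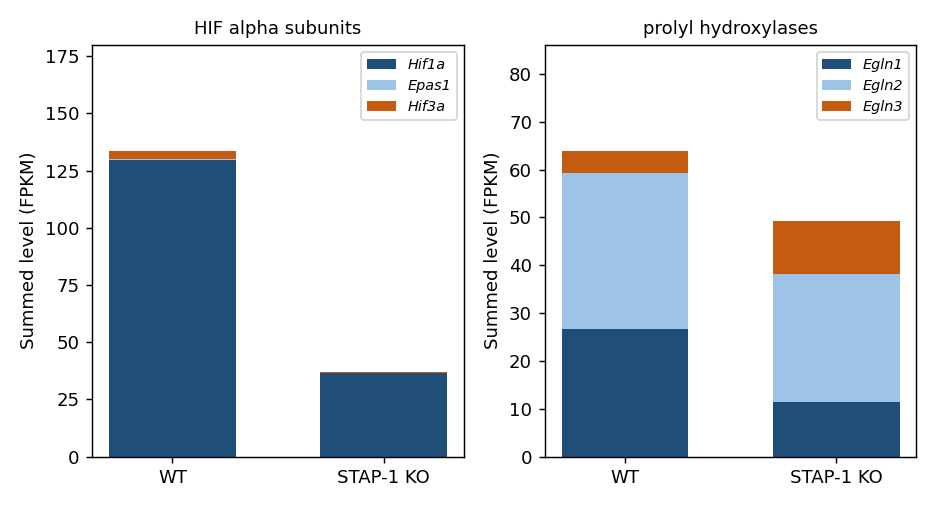
Summed levels in FPKM (bars from 0) of the HIF α subunits (left) and the prolyl hydroxylases (right) in the WT and STAP-1 KO libraries, 1 library each, stacked by gene. The α subunit sums are 133 and 36.8 FPKM and almost all Hif1a, while the prolyl hydroxylase sums are 63.8 and 49.3 FPKM with a larger Egln3 share in STAP-1 KO LSCs.

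Vhl, which recognises the hydroxylated α subunit, was within 2-fold. Vhl (chromosome 6, 113623959 to 113631633, plus strand) had 24.8 FPKM in WT LSCs (22.6 to 27.1) and 17.2 FPKM in STAP-1 KO LSCs (15.7 to 18.8). It was 1.44-fold lower, with a log2 ratio of -0.53 (-0.72 to -0.34 without a pseudocount) and of -0.67 after correction. The intervals did not overlap, so the difference is beyond counting error, but no replicate bears on it.

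Hif1an, which encodes FIH, was lower by more than Vhl before correction. Hif1an (chromosome 19, 44562850 to 44576274, plus strand) had 8.32 FPKM in WT LSCs (7.48 to 9.19, about 373 reads) and 3.43 FPKM in STAP-1 KO LSCs (2.99 to 3.92, about 215 reads). It was 2.42-fold lower, with a log2 ratio of -1.25 (-1.52 to -1.03 without a pseudocount). Its longest transcript has 6194 bases, genes of like length had a median of -0.59, and the corrected log2 ratio was -0.62. The log2 ratios of Vhl and Hif1an were therefore close after the correction and apart before it.

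Cited2 had the highest level of all members in both libraries and was lower in STAP-1 KO LSCs. Cited2 (chromosome 10, 17723218 to 17725674, plus strand) had 219 FPKM in WT LSCs (212 to 226, about 3616 reads) and 86.1 FPKM in STAP-1 KO LSCs (82.4 to 89.98, about 1986 reads). It was 2.54-fold lower, with a log2 ratio of -1.34 (-1.42 to -1.27 without a pseudocount). Unlike the long members, Cited2 has a short transcript, and genes of like length had a median of 0.24. Its corrected log2 ratio of -1.40 was close to the uncorrected one, as it was the only one of the 6 lower members whose ratio did not shrink with the correction.

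The order of the levels in FPKM was much the same in both libraries. FPKM divides by length, but the ratio of the libraries still varied with length, which bears on an order across genes. Cited2 led, followed by Hif1a and then Egln2, in each. In WT LSCs Egln1, Vhl, Arnt, Hif1an, Egln3, Hif3a and Epas1 followed, and the intervals of Egln1 and Vhl and those of Egln3 and Hif3a overlapped. In STAP-1 KO LSCs the order was Vhl, Egln1, Egln3, Arnt, Hif1an, Hif3a and Epas1, with overlapping intervals for Egln1 and Egln3 and for Hif3a and Epas1. Egln3 thus stood below Arnt and Hif1an in WT LSCs and above both in STAP-1 KO LSCs. Genes of like length had median log2 ratios of 0.16 for Egln3, -0.26 for Arnt and -0.59 for Hif1an, which differ in the same direction. The part of length in this change of order was not tested.

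Relative to Hif1a, the genes for VHL, the hydroxylases and Cited2 were more abundant in STAP-1 KO LSCs, whereas Hif3a was less abundant, with 41.1 Hif1a transcripts per Hif3a transcript in WT LSCs and 160.2 in STAP-1 KO LSCs. Length and GC content bear on the last ratio, as the corrected log2 ratios of Hif1a and Hif3a (-1.62 and -2.31) were closer to each other than the uncorrected ones (-1.83 and -3.31). Vhl per Hif1a was 0.191 in WT LSCs and 0.471 in STAP-1 KO LSCs, and Egln2 per Hif1a was 0.250 and 0.734, a 2.93-fold difference. Egln1 per Hif1a was 0.205 and 0.314, Hif1an per Hif1a 0.0640 and 0.0941, and Cited2 per Hif1a 1.68 and 2.36. These ratios of transcripts say nothing of the ratio of the proteins.

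**Figure D4:**
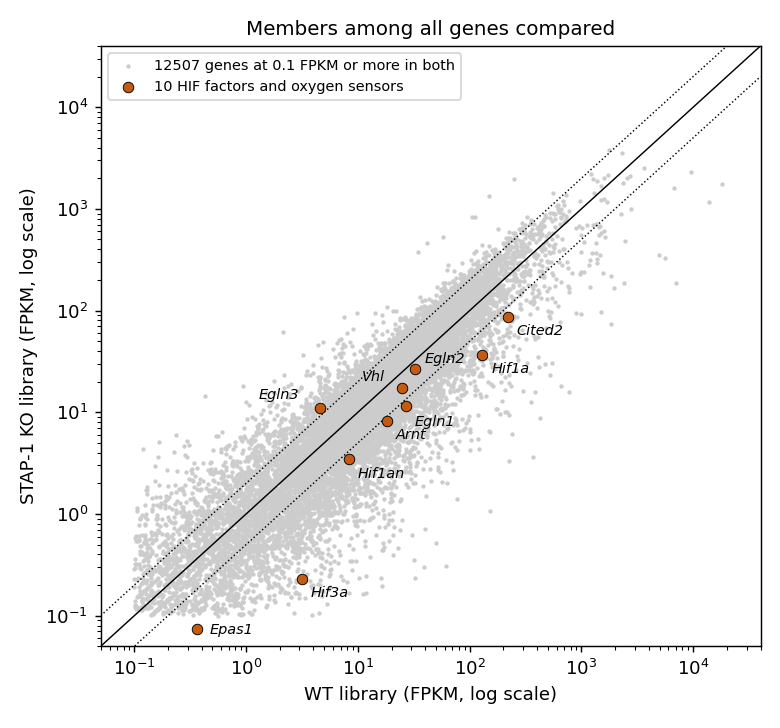
Levels of the 12507 genes with at least 0.1 FPKM in both libraries (grey) and of the 10 members (orange), WT library against STAP-1 KO library, both axes in FPKM on a log scale, with equal levels as a solid line and 2-fold differences as dotted lines. Hif3a, Hif1a, Cited2, Arnt, Egln1, Hif1an and Epas1 (whose STAP-1 KO value is under the floor) lie below the lower 2-fold line, and Egln3 lies just above the upper 2-fold line.

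Known HIF targets of glucose uptake and glycolysis were described beside the factors. Of 20 such genes, all above the floor, 6 were at least 2-fold lower, 1 was higher and 13 were within 2-fold, with a median log2 ratio of -0.60. Their share that was lower, 30%, was near the 22.9% of all genes, and the 1 of 20 that was higher stands beside 12.3%. After correction 4 were lower and 1 was higher, beside 17.6% and 10.7% of all genes, and the median was -0.46. The lactate exporter Slc16a3 had 70.3 FPKM in WT LSCs and 7.45 FPKM in STAP-1 KO LSCs, a log2 ratio of -3.22. Aldoc, an aldolase, had 31.1 and 6.33 FPKM, the glucose transporter Slc2a3 had 155 and 48.0 FPKM, and the hexokinase Hk1 had 167 and 65.8 FPKM. These were the 4 largest ratios by the rule for naming genes, and Hk1 was within 2-fold after correction (-0.79). In contrast, the abundant enzyme Ldha had 2540 and 1990 FPKM, and Pdk1, which restrains pyruvate oxidation, had 18.995 and 19.2 FPKM. Both were named after their values were seen, as was Gapdh, the 1 gene that was higher, with only 0.391 and 1.03 FPKM. Gapdh has many near-identical copies in the genome, and its value is uncertain.

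Of 31 other known HIF targets, 27 could be compared. At least 2-fold lower were 13, 2 were higher and 12 were within 2-fold, and the median log2 ratio of the 27 without a pseudocount was -0.76. The shares were 48.1% lower beside 22.9% of all genes and 7.41% higher beside 12.3%. The correction left 13 lower and 2 higher, beside 17.6% and 10.7% of all genes. Ero1l, an oxidase of the endoplasmic reticulum, had 996 FPKM in WT LSCs and 92.5 FPKM in STAP-1 KO LSCs, a log2 ratio of -3.43. P4ha2, a collagen prolyl hydroxylase, had 22.5 and 2.68 FPKM, Ndrg1 had 126 and 24.1 FPKM, and the transcriptional repressor Bhlhe40 had 268 and 54.6 FPKM. The 2 that were higher were Cox4i2, a cytochrome oxidase subunit, with 4.63 and 19.5 FPKM, and Pdgfb with 0.195 and 0.629 FPKM (about 4.01 and 18.0 reads). The angiogenic factor Vegfa had 39.1 and 14.2 FPKM, Bnip3, a mitophagy receptor, had 83.4 and 26.5 FPKM, and Epo was listed at 0 in both. Cox4i2, Pdgfb, Vegfa, Bnip3 and Epo were named after their values were seen. Egln3, itself a target, was higher while most of the targets past 2-fold were lower.

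The list for the ubiquitin ligase of VHL held its subunits Tceb1, Tceb2, Cul2 and Rbx1, and also Nedd8 and Ube2m, which are not subunits of it. All 6 listed genes were above 0 on the log2 scale and none reached 2-fold, with a median of 0.52 (0.25 after correction). The share of all genes above 0 was not computed, and the median of the 12507 comparable genes was -0.05. The listed genes have a median length of 1743 bases, and the median log2 ratio was 0.51 in the tenth of genes with the shortest transcripts. Past 2-fold were 22.9% of all genes in the lower and 12.3% in the higher direction, so that a list of 6 without such a gene is not set apart from the rest. Rbx1, the RING subunit, had 50.1 FPKM in WT LSCs and 87.9 FPKM in STAP-1 KO LSCs. Tceb1 (elongin C) had 128 and 195 FPKM, Tceb2 (elongin B) 114 and 162 FPKM, and the scaffold Cul2 29.5 and 43.0 FPKM. After correction Tceb1 was at -0.13, so its direction depends on the correction.

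The genes for HIF stability and coactivation were mixed. Of 12 listed, 11 could be compared, and 4 were at least 2-fold lower, 1 was higher and 6 were within 2-fold. The shares were 36.4% lower beside 22.9% of all genes and 9.09% higher beside 12.3%. After correction 2 were lower and 0 higher, beside 17.6% and 10.7% of all genes. The coactivator p300 (Ep300), for which Cited2 and HIF compete, had 9.04 FPKM in WT LSCs and 1.86 FPKM in STAP-1 KO LSCs, a log2 ratio of -2.22 and of -1.18 after correction. Its paralog Crebbp had 5.15 and 1.65 FPKM, and its corrected log2 ratio of -0.54 was inside 2-fold. Both have long transcripts, of 9566 and 10820 bases, in the length class whose median was -0.998. Cited4, a relative of Cited2, had 59.6 and 26.3 FPKM, and the chaperone Hsp90aa1, which holds HIF-1α in a stable form, had 69.8 and 152 FPKM. The corrected log2 ratio of Hsp90aa1 was 0.89, inside 2-fold.

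**Figure D5:**
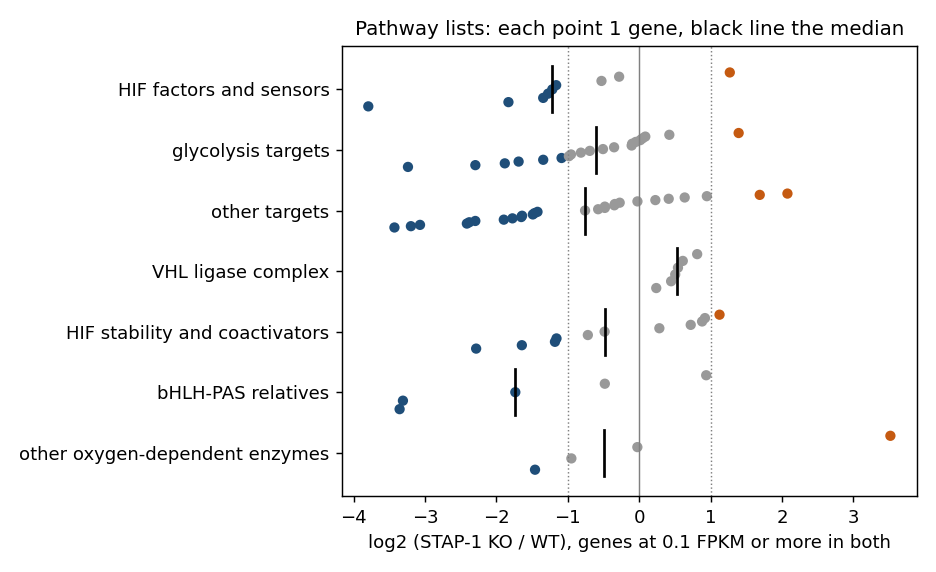
Log2 ratio of STAP-1 KO to WT without a pseudocount for each gene at 0.1 FPKM or more in both libraries, by list, with the median as a black line and 2-fold differences as dotted lines (blue at least 2-fold lower, orange at least 2-fold higher, grey within 2-fold). The medians were -1.22 for the 9 comparable members, -0.60 for glycolysis targets, -0.76 for other targets and 0.52 for the VHL ligase complex.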

How the data were processed

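The cDNA of 1 library for each genotype was amplified with SMART-Seq v4 and sequenced as single reads of 75 bases. The labels name a miRNeasy kit for RNA extraction, and the methods an RNeasy kit. The authors mapped the reads to mm10 and deposited FPKM values per gene symbol, which the methods say were calculated with Cuffnorm. The submitters' processing notes name TopHat2 2.0.13, Bowtie2 2.2.3, SAMtools 0.1.19 and Cufflinks 2.2.1. The gene annotation, the scaling option of Cuffnorm and the strand setting are not given in the sources used here.

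The members and lists were chosen with earlier results of these data known. Python 3.11.15 was used, with pandas 2.3.3, numpy 2.4.6, matplotlib 3.10.9 and scipy 1.17.1. Genes were compared with at least 0.1 FPKM in both libraries, counted at 2-fold without a pseudocount, and given log2 ratios with a pseudocount of 0.1 FPKM. Symbols were matched to GENCODE M21 (GRCm38), 20911 as written, 1901 through an older symbol and 472 not. The correction used 20 bins of transcript length, then 20 of GC content. Reads were estimated from the longest transcript less 206 bases and the effective depth, which brought to within 0.01 of a whole read 45.7% (WT, 247 values) and 46.3% (STAP-1 KO, 313 values) of low values. For a transcript of 2000 bases, 3 reads equal 0.223 FPKM in WT LSCs and 0.160 FPKM in STAP-1 KO LSCs. Other floors, fold cut-offs, pseudocounts and scalings were tried as alternatives. The 2-fold call, the depth estimate, the length part of the correction and the counting interval of the ratios were tested on simulated data. The other steps were not. From each list other than the members and markers, up to 4 genes averaging 1 FPKM or more and with the largest absolute log2 ratio at a pseudocount of 1 FPKM were named, and from each marker list the sorting antigens and up to 2 of the most abundant genes. Promoter sequences are from RefSeq, and primers from the study's supplement. With 2 libraries, no test of genotype was possible. The lineage and erythroid marker lists are not reported here.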

Additional observations from a re-analysis of the deposited data

How the results depend on the processing

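No paired analysis was possible because there was 1 library for each genotype, and for the same reason no library could be left out. A 4-fold cut-off left 1 member lower (Hif3a) and 0 higher, 2 glycolysis targets lower and 0 higher, and 6 other targets lower and 1 higher, beside 8.56% of all genes lower and 2.40% higher. A 1.5-fold cut-off gave 10 glycolysis targets lower and 4 other targets higher, beside 32.8% lower and 25.6% higher. The length and GC correction left 3 members lower. With a floor of 1 FPKM in both libraries, 5 members were lower (without Hif3a), 0 glycolysis targets were higher and 1 other target was higher, beside 19.3% of all genes lower and 10.6% higher. With at least 1 FPKM in the higher library and no floor in the lower, 1 other target was higher, beside 11.9% of all genes. Scaling by the library medians or by the totals left 5 members lower (without Arnt). These scalings moved the median log2 ratio of all genes to 0.17 and 0.12, and the split of all genes past 2-fold from 2860 lower and 1538 higher to 2399 and 2299 or 2471 and 2119. Of 60 recomputed log2 ratios of members, 60 kept their sign, 45 stayed within the counting interval and 15 left it. The largest shift was that of Hif3a at a pseudocount of 1 FPKM (-1.76). Depth limits Epas1 in both libraries and Hif3a in STAP-1 KO LSCs.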

Other observations

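The relatives of the members in the bHLH-PAS family, which share the dimerisation domain of HIF, were mostly low. Of 12 listed, 5 were at 0 in both libraries and 5 could be compared, of which 3 were at least 2-fold lower and 2 within 2-fold. These 3 of 5 stand beside 22.9% of all genes. Ahr, the aryl hydrocarbon receptor and another partner of ARNT, had 49.8 FPKM in WT LSCs and 5.02 FPKM in STAP-1 KO LSCs, a log2 ratio of -3.28 and of -2.76 after length and GC correction. The circadian factor Clock had 2.83 and 0.276 FPKM, and Arnt2, the second β subunit, had 3.58 and 1.07 FPKM. Arntl (BMAL1), the partner of Clock, had 4.597 and 8.81 FPKM. After correction its log2 ratio was 1.04, past 2-fold. Arnt2 was below Arnt in both libraries.

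Of 4 other oxygen-dependent enzymes, 1 was lower (beside 22.9% of all genes), 1 was higher (beside 12.3%) and 2 were within 2-fold. P4htm, a membrane-bound prolyl hydroxylase of the endoplasmic reticulum, had 0.167 and 1.91 FPKM, which rest on about 2.28 and 36.5 reads, and its log2 ratio without a pseudocount was 3.52 with a counting interval of 1.77 to 6.83. The histone demethylase Kdm6a had 15.2 and 5.53 FPKM, its relative Kdm5a 11.8 and 6.09 FPKM, and the cysteamine dioxygenase Ado 9.92 and 9.74 FPKM. No replicate bears on any of these differences.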
